A study of Arabidopsis thaliana with 10 samples.

Results

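EXECUTER1 (EX1) was removed from Arabidopsis plants that release singlet oxygen in their plastids, and the 2 arrays of that line, ex1/flu, were set against the 2 arrays of flu plants with both EXECUTER genes intact. These 4 arrays were chosen by genotype alone, from 10 ATH1 arrays in all. EXECUTER2 (EX2) was intact in both genotypes. The 4 arrays of ex1/ex2/flu and ex2/flu, which hold the same loss of EX1 in plants without EX2, and the 2 wild-type arrays were used for comparison.

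Protochlorophyllide is a photosensitizing precursor of chlorophyll, and FLU is the plastid protein that stops its synthesis in the dark. A flu mutant accumulates it in darkness and generates singlet oxygen in the plastid once light returns. EX1 and EX2 are related plastid proteins, known from mutants in the flu background. They are needed for much of the change in nuclear gene expression after such a release.

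The ex1/flu line carried a T-DNA insertion in EX1 and the flu mutation. The ex1/ex2/flu line carried T-DNA insertions in both EXECUTER genes and the ex2/flu line carried one in EX2, each with the flu mutation. The flu line carried that mutation alone, and the wild type was Columbia. The flu allele came from Landsberg erecta and had been backcrossed to Columbia 5 times, and the insertion lines were made by crossing to this flu line, so each genotype rests on a single allele per gene. Soil-grown plants were kept under constant illumination, at 100 µmol m-2 s-1, until they began to bolt. They then spent 8 h in darkness and were collected after 30 min of renewed light. Each array held rosette leaves pooled from 5 mature plants, and the labels call the 2 pools of a genotype biological replicates. In such bulk leaf samples fewer cells of a type and less RNA per cell cannot be told apart.

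Of the 22746 probe sets for genes on the array, 14435 (63.5%) were bright enough to be tested. Median signals per array were 158 to 171. The 2 arrays of a genotype correlated at 0.973 in ex1/flu and 0.985 in flu, and the median standard deviation between them was 0.18 in ex1/flu and 0.12 in flu on the log2 scale. The poly-A spike-in controls, added before labelling, had mean log2 signals of 7.47 and 6.46 on ex1/flu arrays 1 and 2 and 7.30 and 6.53 on flu arrays 1 and 2. Array 1 was the higher in both genotypes. Of the leaf markers only RCA, which encodes Rubisco activase, had an assigned probe set, at log2 14.25 and 14.01 in ex1/flu and 14.36 and 14.19 in flu. The only root marker measured, PYK10, had 9.42 and 9.65 in ex1/flu and 9.72 and 9.59 in flu. The groups overlapped for both genes, and no probe set of an inflorescence or senescence marker was assigned.

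All levels below are log2 of the deposited signal, given for array 1 and then array 2 of a genotype. A difference is the mean log2 level of the tested line minus that of the line it is set against, with limma's moderated standard error, and a probe set is called where limma's p, adjusted by Benjamini-Hochberg across the 14435, is under 0.05. With 2 arrays against 2 an exact permutation test of a single gene cannot go below a two-sided p of 0.333.

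The probe set of EX1 (AT4G33630, chromosome 4) checked the label. Its level was 7.95 and 7.88 in ex1/flu and 9.59 and 9.59 in flu. The 2 groups did not overlap, and the difference was -1.67 ± 0.17 (limma adjusted p = 0.000303), a level 3.19-fold lower in ex1/flu. The ex1/ex2/flu line was low as well, at 7.53 and 7.81, while ex2/flu had 9.30 and 9.13 and wild type 9.24 and 9.59. Where the insertion lies relative to the probes was not analysed here, so a remaining signal does not tell whether any intact transcript was left. FLU and EX2 had no assigned probe set.

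More probe sets were lower than higher in ex1/flu. Of the 14435 probe sets 197 were called (1.36%). Of these, 165 were lower in ex1/flu (1.14% of those tested) and 32 were higher (0.222%). Counting only changes of 2-fold or more, there were 94 lower (0.651%) and 8 higher (0.0554%). The 2 ex1/flu and 2 flu arrays did not overlap for any of the 197, nor for 40.2% of all 14435, so a lack of overlap in a called gene is given below as a description only. The median difference was -1.04 over the 165 and 0.83 over the 32, against 0.01 over all 14435. The lower group held 67 probe sets assigned to 1 gene, 4 assigned to several and 94 that the annotation table does not list. The higher group held 14 assigned to 1 gene and 18 unlisted. The plot of difference against level shows the excess of lower calls, reaching from dim to bright probe sets.

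**Figure D1:**
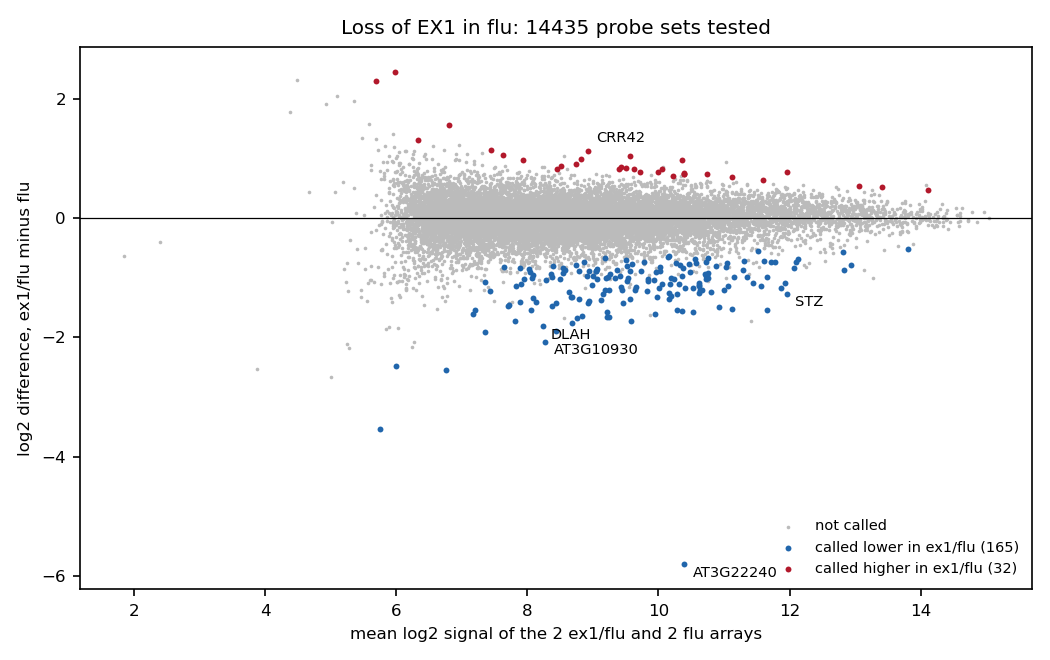
Each point is 1 of the 14435 tested probe sets. The x axis is its mean log2 signal over the 2 ex1/flu and 2 flu arrays, and the y axis the log2 difference, ex1/flu minus flu. Blue points are the 165 called lower and red points the 32 called higher; AT3G22240 lies far below all others at -5.81.

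The number of calls rested on single flu arrays. Without flu array 1 it was 95, and without flu array 2 it was 58, of which 92 and 53 were among the 197. It was 106 without limma's intensity trend, and 341 (259 lower and 82 higher) with the poly-A spike-in level as a covariate.

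Of 10 measured stress-peptide genes 2 were called lower and none higher, and the median over the 10 was 0.16. Of all tested probe sets 1.14% were called lower and 0.222% higher. These shares are the background for the list counts in this and the following paragraphs. A list gene counts as measured where a tested probe set is assigned to it alone, so probe sets the annotation table does not list are left out. AT3G10930, which encodes the peptide precursor IDL7 of the INFLORESCENCE DEFICIENT IN ABSCISSION-like family, had 7.08 and 7.39 in ex1/flu and 9.48 and 9.14 in flu. Both ex1/flu arrays lay far below both flu arrays. It fell by 2.07 ± 0.21 on the log2 scale (limma adjusted p = 0.000215), or 4.21-fold, to a level above the 6.64 and 6.29 of wild type. AT4G37290, the precursor of a secreted stress peptide, had 8.22 and 8.82 in ex1/flu and 9.59 and 10.02 in flu, without overlap. It fell by 1.28 ± 0.22 (limma adjusted p = 0.00665). Of 5 measured jasmonate genes 1 was called lower, with a median of -0.14 over the 5. This was DLAH, a DAD1-like acylhydrolase that frees fatty acids from membrane lipids. It had 7.75 and 6.90 in ex1/flu against 8.88 and 9.40 in flu. The ex1/flu arrays lay further apart than the flu arrays, and the difference was -1.82 ± 0.27 (limma adjusted p = 0.00194).

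A second group holds genes widely used as markers of singlet oxygen release. They were picked in earlier work for rising in flu, and their choice here was made with these arrays known, so their direction is not independent evidence. Of 10 measured reporters 6 were called lower and none higher, against 1.14% and 0.222% of all tested probe sets. All 10 differences were below 0, as were 7066 of the 14435 tested. The median over the 10 was -1.33 against 0.01 over all tested probe sets. Without flu array 2 only 2 of the 10 were called, and without limma's intensity trend 4 were called. STZ, a C2H2 zinc-finger transcriptional repressor of abiotic stress responses, was among the brightest, with 11.18 and 11.48 in ex1/flu and 12.50 and 12.69 in flu. Its groups did not overlap, and it fell by 1.27 ± 0.15 (limma adjusted p = 0.000487). AT5G66650, of the organelle calcium uniporter family, had 8.62 and 8.13 in ex1/flu and 9.71 and 10.37 in flu. It fell by 1.67 ± 0.25 (limma adjusted p = 0.00194).

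AT5G64870, a flotillin-like membrane protein, had 7.32 and 7.23 in ex1/flu and 8.46 and 9.19 in flu, and wild type had 8.00 and 7.27. Its ex1/flu arrays agreed closely and lay within or below the wild-type range, with a difference from flu of -1.55 ± 0.28 (limma adjusted p = 0.00887). AT4G39670, of the glycolipid transfer protein family, had 8.77 and 9.00 in ex1/flu, 10.04 and 10.46 in flu, and 9.82 and 9.19 in wild type. Its fall of 1.36 ± 0.23 (limma adjusted p = 0.0054) placed both ex1/flu arrays below both wild-type arrays. AT1G05575, of unknown function, had 9.24 and 9.83 in ex1/flu, 10.51 and 11.17 in flu and 7.53 and 7.31 in wild type. It fell by 1.30 ± 0.23 (limma adjusted p = 0.00755) yet both ex1/flu arrays stayed above wild type. AT3G48650, annotated as a transcribed pseudogene, had 7.93 and 7.66 in ex1/flu, 9.45 and 9.67 in flu and 8.18 and 7.79 in wild type. It fell by 1.76 ± 0.21 (limma adjusted p = 0.000523).

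The 4 reporters that missed the test are named here after their values were seen. AT2G22880, of the VQ-motif family, had 7.37 and 8.06 in ex1/flu against 9.12 and 9.67 in flu, a difference of -1.68 ± 0.49 with a limma adjusted p of 0.126. AT3G28580, the AAA-ATPase often used to report singlet oxygen signalling, was dim, with 6.37 and 5.96 in ex1/flu and 7.03 and 6.76 in flu. AT1G19020 differed by -0.70 and the TIR-domain gene AT1G57630 by -0.64, and the 2 groups overlapped for AT1G57630.

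WRKY53, a factor of defence and leaf senescence, had 10.14 and 9.95 in ex1/flu and 11.09 and 11.29 in flu, without overlap. It fell by 1.15 ± 0.19 (limma adjusted p = 0.00413). WRKY6 had 6.99 and 5.74 in ex1/flu, the latter below that array's filter level of 6.49, and 7.90 and 8.03 in flu. Its difference of -1.60 ± 0.35 (limma adjusted p = 0.0299) leaned on ex1/flu array 2, without which it was -0.98 and not called. Of 5 measured WRKY factors these 2 were called lower and none higher, with a median of -0.63, and neither was called without flu array 2.

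TIR-domain genes encode a class of intracellular immune receptors and their truncated relatives. Of 8 measured, 4 were called lower and none higher, against 1.14% and 0.222% of all tested probe sets. All 8 differences were below 0, as were 7066 of the 14435 tested, and the median over the 8 was -1.04. AT1G66090 had 9.27 and 9.36 in ex1/flu and 10.52 and 10.75 in flu, and fell by 1.32 ± 0.17 (limma adjusted p = 0.000828). A trio of neighbouring genes of a chromosome 1 cluster made up the rest. AT1G72920 had 9.50 and 9.35 in ex1/flu and 10.62 and 10.58 in flu, with a difference of -1.17 ± 0.17. AT1G72900 differed by -1.11 ± 0.17 and AT1G72940 by -0.98 ± 0.18, both called. Without flu array 2 the count over the 8 was 2. The members of this cluster are related in sequence, and whether they share hybridisation signal was not tested.

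PUB24, a U-box ubiquitin ligase that restrains immune responses, was the only one called of 12 ubiquitin ligases measured. It had 8.77 and 8.63 in ex1/flu and 9.54 and 9.85 in flu, and fell by 1.00 ± 0.17 (limma adjusted p = 0.0054). Its ex1/flu level lay close to the 8.86 and 8.87 of wild type. The median over the 12 was -0.49, and 10 of them were below 0, as were 7066 of the 14435 tested probe sets.

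Further named genes that fell have less well known roles. AT4G01870, of a family related to the bacterial TolB protein, had 9.52 and 9.63 in ex1/flu, 11.18 and 11.11 in flu and 9.58 and 9.44 in wild type. It fell by 1.57 ± 0.18 (limma adjusted p = 0.00043), so that ex1/flu and wild type overlapped. AT3G02840, an armadillo-repeat protein, had 8.17 and 8.06 in ex1/flu, 9.34 and 9.61 in flu and 8.05 and 8.02 in wild type, and fell by 1.36 ± 0.16 (limma adjusted p = 0.000487). AT2G41640, a glycosyltransferase, had 7.64 and 7.63 in ex1/flu, 8.95 and 9.28 in flu and 7.27 and 6.93 in wild type, and fell by 1.48 ± 0.19 (limma adjusted p = 0.000669). Both ex1/flu arrays of AT3G02840 and AT2G41640 stood between flu and wild type, as did those of 4 others. AT4G29780 had 9.75 and 9.27 in ex1/flu, 11.00 and 11.10 in flu and 8.06 and 7.82 in wild type. AT1G76600 had 10.01 and 10.69 in ex1/flu, 11.68 and 12.08 in flu and 8.93 and 8.84 in wild type. AT2G32030, a GNAT-type acetyltransferase, had 8.96 and 9.46 in ex1/flu, 10.27 and 10.59 in flu and 7.80 and 8.01 in wild type. AT1G23710 had 8.12 and 7.90 in ex1/flu, 9.27 and 9.38 in flu and 7.23 and 7.59 in wild type. The differences of the last 4 lay between -1.54 and -1.22.

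**Figure D2:**
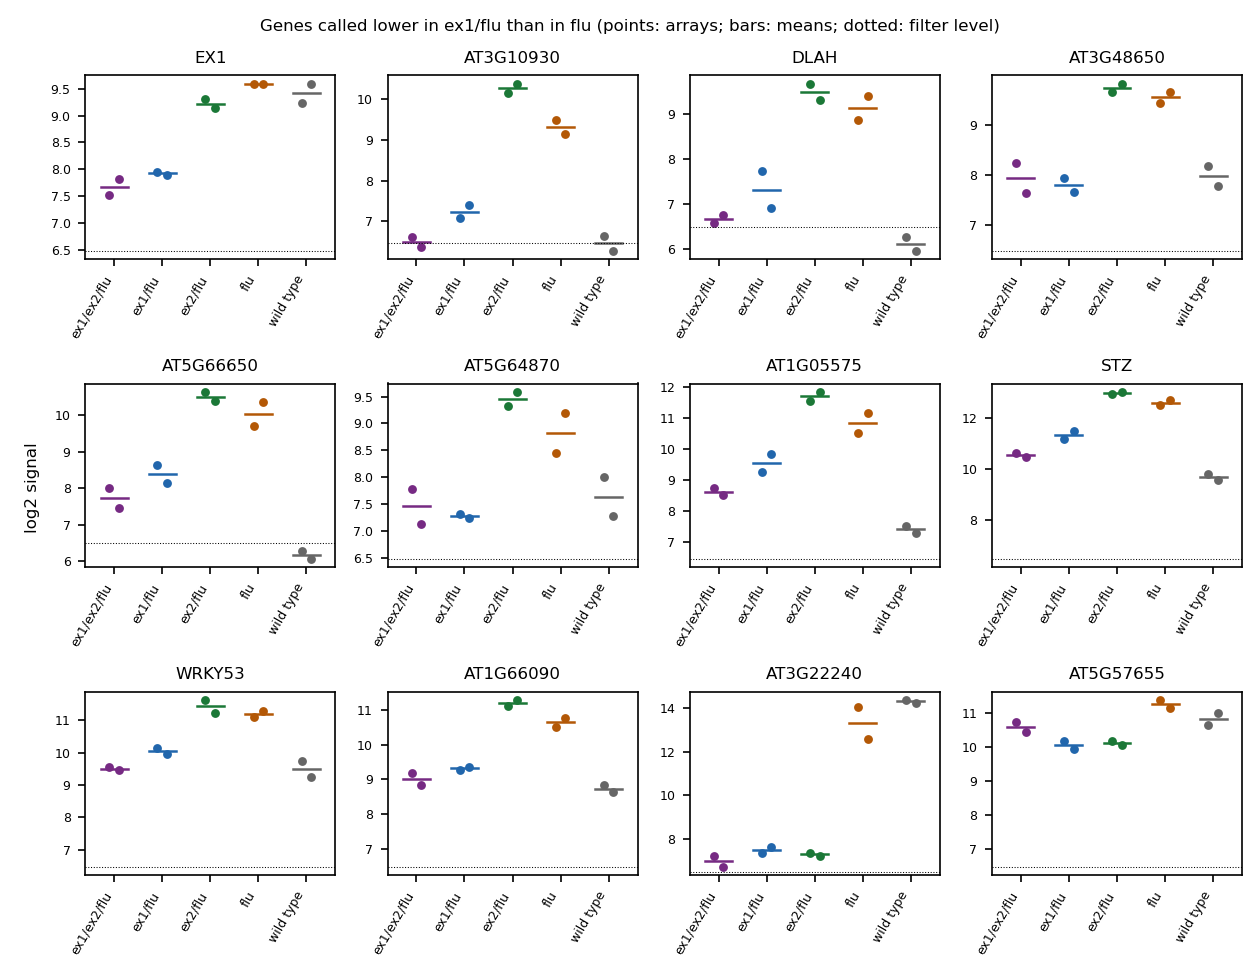
Log2 signal of 12 genes lower in ex1/flu than in flu, with 1 panel per gene and genotypes along the x axis (ex1/ex2/flu, ex1/flu, ex2/flu, flu, wild type). Points are arrays, bars the mean of 2 arrays, and the dotted line the mean 40th percentile used as the filter; both ex1/flu points lie below both flu points in each panel, as they do for every called lower probe set, and AT3G22240 and AT5G57655 are low in ex2/flu too.

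UGT73B1, a glucosyltransferase active on flavonoids, had 6.31 and 6.50 in ex1/flu, 8.25 and 8.38 in flu and 6.66 and 6.64 in wild type. It fell by 1.91 ± 0.22 (limma adjusted p = 0.000487). Its ex1/flu array 1 lay below the filter level of 6.48 and array 2 just above its 6.49, so that level limits the size given. UGT73B1 was the only one called of the 34 tested probe sets in the list of glutathione S-transferases and glycosyltransferases. That list does not hold AT2G41640, the called glycosyltransferase above. In the gene order of assembly TAIR10.1 UGT73B1 lies 57 genes from EX1. Within 200 genes on either side of EX1, 2 of 129 tested probe sets of 1 gene were called (1.55%), against 1.01% of the 7750 with a place in the gene order. The other of the 2 was GAMMA-VPE, a vacuolar processing enzyme named after its value was seen, with a difference of -0.56 ± 0.13. Around FLU, on chromosome 3, none of 130 was called by limma, and 24 (18.5%) had an unadjusted p under 0.05. The same held for 17 (13.2%) around EX1 and for 12.1% of the 7750. Whether parental sequence linked to the insertion or to flu has a part in these values was not tested.

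A further set of genes, in this and the next paragraph, had lower means than flu in ex2/flu as well as in ex1/flu. The differences of ex2/flu minus flu ran from -6.01 (AT3G22240) to -1.13 (AT2G20670). All but the last were called (AT2G20670, limma adjusted p = 0.101). UGT73B1, above, had a smaller difference of -0.54, not called. AT3G22240, encoding a small protein of unknown function, had 7.36 and 7.62 in ex1/flu and 14.05 and 12.56 in flu. The gap, 56.1-fold, was the widest of the comparison (-5.81 ± 0.33, limma adjusted p = 2.26e-07). The same gene had 7.24 and 6.73 in ex1/ex2/flu, 7.37 and 7.21 in ex2/flu and 14.37 and 14.24 in wild type. All 3 lines with a T-DNA insertion were thus low and both genotypes without one were high. Loss of EX1 and other differences in background between the ex1/flu and flu lines cannot be told apart here. AT5G57655, a xylose isomerase, had 10.17 and 9.94 in ex1/flu, 11.39 and 11.15 in flu and 10.17 and 10.07 in ex2/flu. It fell by 1.21 ± 0.17 (limma adjusted p = 0.00144).

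The chitinase gene CHI had 9.82 and 10.27 in ex1/flu, 11.50 and 10.86 in flu and 9.23 and 9.35 in ex2/flu, and it fell by 1.13 ± 0.22 (limma adjusted p = 0.0148). Wild type was the highest, at 11.76 and 11.96. AT1G68620, of the carboxylesterase family, had 7.02 and 7.83 in ex1/flu, 9.06 and 8.61 in flu and 7.27 and 7.17 in ex2/flu. It differed by -1.41 ± 0.28 (limma adjusted p = 0.0169). AT2G20670, of unknown function, had 8.27 and 8.60 in ex1/flu, 9.93 and 9.70 in flu and 8.50 and 8.89 in ex2/flu, with a difference of -1.38 ± 0.31 (limma adjusted p = 0.0357).

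Of the 29 named genes lower in ex1/flu other than EX1, 12 stayed called under every alternative run. These were AT1G66090, AT1G72920, AT2G41640, AT3G02840, AT3G10930, AT3G22240, AT3G48650, AT4G01870, AT4G29780, AT5G57655, STZ and UGT73B1. Without flu array 2, 16 lost their call: AT1G05575, AT1G23710, AT1G68620, AT1G72900, AT1G72940, AT1G76600, AT2G20670, AT2G32030, AT4G37290, AT4G39670, AT5G64870, AT5G66650, DLAH, PUB24, WRKY53 and WRKY6. Without flu array 1, 5 did (AT1G68620, AT1G72940, AT2G20670, CHI and WRKY6), and without ex1/flu array 1 another 5 (AT1G05575, AT1G68620, AT2G20670, AT4G37290 and CHI). None of the 29 changed direction. A further 37 genes with a probe set of their own were called lower without meeting the rule for naming. For 36 of them the differences ran from -1.55 to -0.56, and for AT3G02480, below the filter level on both ex1/flu arrays, the fall was at least 1.05 on the log2 scale.

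The genes higher in ex1/flu were fewer and moved less. Besides the 11 named below, 3 genes with a probe set of their own were called higher, by 0.98 to 1.14, without meeting the naming rule. Over all 32 probe sets called higher the largest difference was 2.45, and 4 of the 32 were below the filter level on both flu arrays. CRR42, a plastid protein needed to assemble the NDH complex of cyclic electron flow, had 9.38 and 9.60 in ex1/flu and 8.37 and 8.35 in flu. It rose by 1.13 ± 0.17 (limma adjusted p = 0.00191), or 2.19-fold, to the 9.49 and 9.49 of wild type. The plastid-encoded ribosomal protein gene rpl20 had 9.22 and 9.42 in ex1/flu and 8.21 and 8.45 in flu. It rose by 0.99 ± 0.20 (limma adjusted p = 0.0167) and was the only one called of 69 plastid-encoded probe sets. GIS, a C2H2 zinc-finger factor of trichome initiation, had 9.09 and 9.29 in ex1/flu and 8.30 and 8.28 in flu, against 9.21 and 9.70 in wild type. It rose by 0.90 ± 0.19 (limma adjusted p = 0.0239).

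AT5G03120, of unknown function, had 10.002 and 10.16 in ex1/flu and 8.87 and 9.21 in flu, and rose by 1.04 ± 0.19 (limma adjusted p = 0.00876). The 7 others that met the naming rule rose by between 0.52 and 0.84. They include the subtilase gene AT4G30020 (0.82 ± 0.17), AT4G30650 of the low-temperature-responsive membrane protein family (0.69 ± 0.14), and AT1G09310 (0.52 ± 0.10), at 13.68 and 13.65 in ex1/flu and 13.12 and 13.18 in flu the brightest of them. The others were AT5G54970 (0.84), AT1G12845 (0.82), AT1G72020 (0.78) and AT1G14345 (0.63). CRR42 alone of the 11 stayed called under every alternative. Without flu array 1 the other 10 lost their call, and without flu array 2 all but CRR42 and AT5G03120 did.

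**Figure D3:**
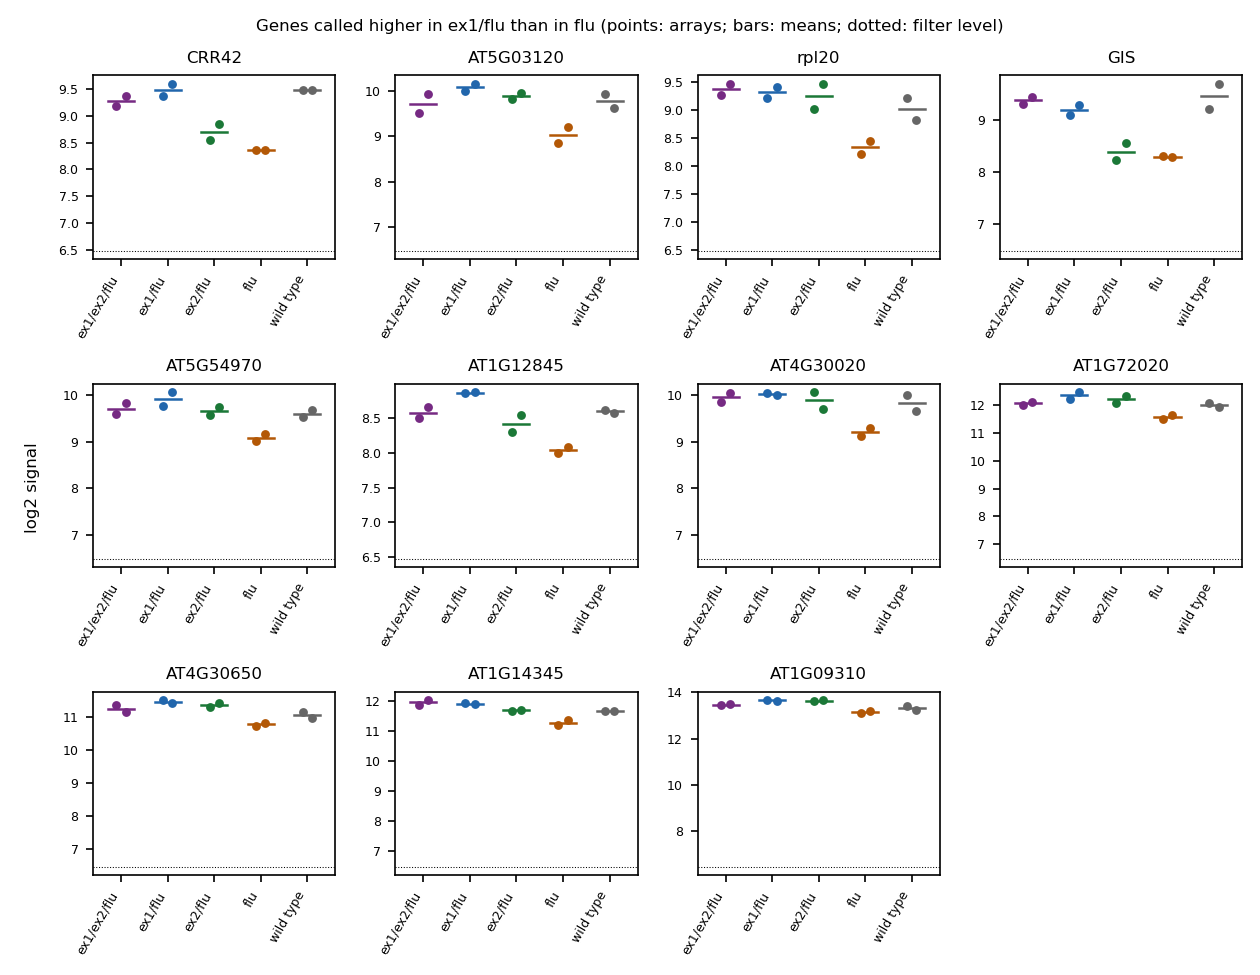
Log2 signal of the 11 named genes higher in ex1/flu than in flu, drawn as in the plot of the lower genes (points are arrays, bars the mean of 2 arrays, the dotted line the filter level). Both ex1/flu points lie above both flu points in each panel, as the rule for naming required, and flu has the lowest mean of the 5 genotypes.

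Most lists of genes grouped by function held no or few calls. Each is read against the background of 1.14% of tested probe sets called lower and 0.222% called higher. Of 13 cytochrome P450 genes limma called none and 3 had an unadjusted p under 0.05, as did 13% of all tested probe sets, with a median difference of -0.14 and a range from -0.77 to 0.23. None of 5 enzymes that scavenge superoxide or hydrogen peroxide was called by limma, 1 had an unadjusted p under 0.05, and the median was -0.11. Among them AT3G11630, a plastid 2-Cys peroxiredoxin, had 13.68 and 13.56 in ex1/flu and 13.36 and 13.37 in flu, and thylakoid ascorbate peroxidase (TAPX) had 11.02 and 10.90 in ex1/flu and 10.72 and 10.71 in flu.

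Nuclear photosynthesis and chlorophyll synthesis gave no call by limma. Of their 12 and 8 genes 0 had an unadjusted p under 0.05, against 13% of all tested probe sets. Of 12 nuclear photosynthesis genes 11 differences were below 0, all small, from -0.37 to 0.13 with a median of -0.13. The antenna gene LHCB4.3 had 10.94 and 11.25 in ex1/flu and 11.66 and 11.26 in flu, and phosphoribulokinase (PRK) had 13.71 and 13.67 in ex1/flu and 13.98 and 13.83 in flu. Of 8 tetrapyrrole synthesis genes, the pathway that FLU restrains, differences ran from -0.26 (CHLM, a methyltransferase on the chlorophyll branch) to 0.46 (HEMA2, a glutamyl-tRNA reductase), with a median of 0.06. The 69 plastid-encoded probe sets had a median of 0.06, and 44 of them were above 0. Apart from rpl20, described above, the 68 uncalled ones ranged from -0.83 to 0.76.

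Of the 12 tested genes in the list of calcium signalling none was called by limma, and 2 had an unadjusted p under 0.05, against 13% of all tested probe sets. The list does not hold AT5G66650, of the organelle calcium uniporter family, which was called lower among the reporters above. The median over the 12 was -0.11, and 7 were below 0. CML37, a calmodulin-like calcium sensor, had 8.09 and 8.50 in ex1/flu and 9.33 and 9.60 in flu, and these did not overlap. The difference of -1.17 ± 0.29 just missed the threshold (limma adjusted p = 0.0627). CML23 had 7.29 and 7.58 in ex1/flu and 8.20 and 8.04 in flu. In the group of dark starvation and leucine breakdown genes 5 of 6 were below 0 with a median of -0.56. None was called by limma, and 3 had an unadjusted p under 0.05. MCCA, a subunit of methylcrotonyl-CoA carboxylase, had 9.74 and 10.51 in ex1/flu and 10.98 and 11.08 in flu.

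Cell-wall and cold-regulated genes were not called by limma either. Of them 5 of 32 and 3 of 4 had an unadjusted p under 0.05, against 13% of all tested probe sets. Over the 32 genes of cell wall and touch responses the median was 0.14. The touch-responsive XTH18 had 7.68 and 7.64 in ex1/flu and 8.19 and 9.21 in flu, and the expansin-like EXLA1 had 9.82 and 10.10 in ex1/flu and 9.50 and 9.04 in flu. The cold-regulated COR15A had 10.66 and 10.73 in ex1/flu and 9.81 and 10.31 in flu, a difference of 0.64 ± 0.18 (limma adjusted p = 0.117). COR15B differed by 0.44. Besides AT3G10930 and AT4G37290 the 8 other stress-peptide genes were not called, and 7 of them had differences above 0. Beyond DLAH none of the 4 other jasmonate genes measured was called. ORA47, a stress-responsive AP2/ERF factor, had 6.81 and 6.65 in ex1/flu and 7.07 and 7.71 in flu and was not called. The receptor-like kinase BIK1 of immune signalling had 9.47 and 9.22 in ex1/flu and 9.88 and 9.99 in flu, and the ethylene-signalling factor EIN3 had 10.94 and 10.38 in ex1/flu and 11.13 and 10.97 in flu. Neither was called. The lists were thinly covered, and no tested probe set was assigned to the listed MAP kinases or heat shock proteins. Whether any of the 6323 tested probe sets that the annotation table does not list belong to them was not examined.

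**Figure D4:**
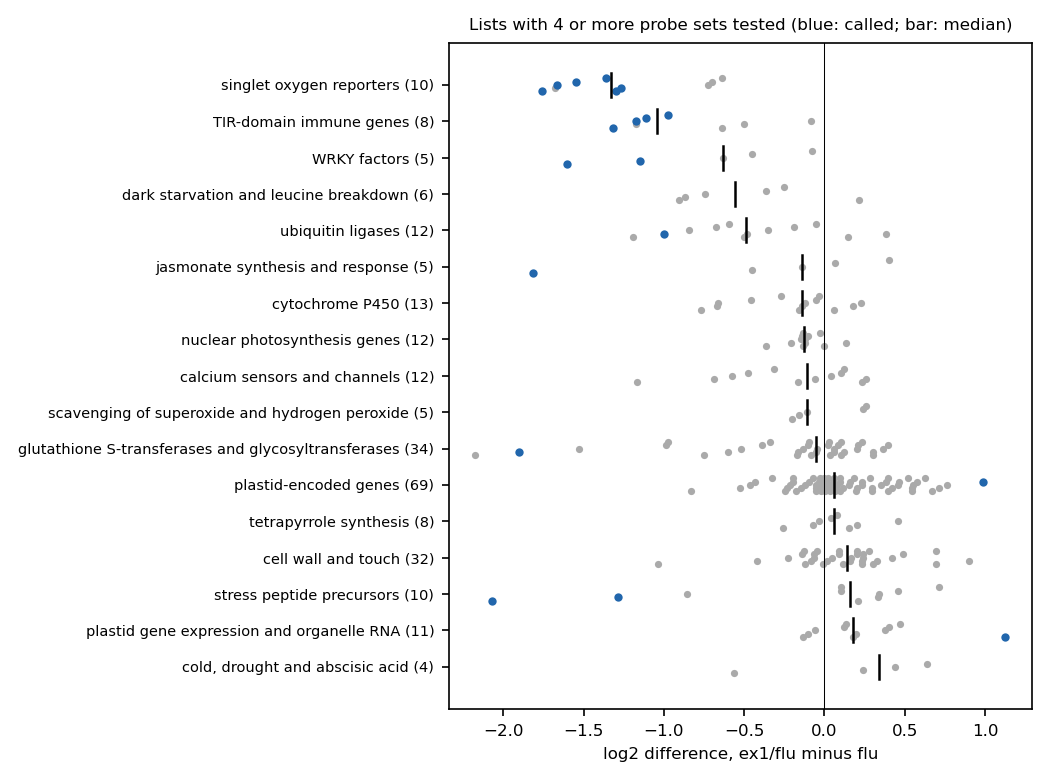
Log2 difference, ex1/flu minus flu, of each tested probe set in the lists with 4 or more of them (numbers in parentheses). Blue points are called, grey points are not, and the black bar is the list's median; singlet oxygen reporters and TIR-domain genes lie wholly below 0, while the 69 plastid-encoded probe sets centre on 0.06.

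Loss of EX1 from plants without EX2 gave a comparison that shares no array with the one above. In ex1/ex2/flu against ex2/flu 393 probe sets were called (2.72%), 357 lower (2.47%) and 36 higher (0.249%). Of the 165 probe sets that were lower in ex1/flu than in flu, 129 were also called lower here, which is 78.2% of the 165 and 36.1% of the 357. A further 1 was called higher. In all, 146 of the 165 differences were below 0, against 39.9% of all tested probe sets, and their median was -1.40. The 32 probe sets that were higher in ex1/flu than in flu did not share this: 1 was called higher and 1 lower, 16 were below 0, and the median was -0.01. The share of 78.2% ranged from 62.1% to 93.3% when single arrays were left out. With each comparison fitted on its own arrays alone, 126 of 169 were called lower in both, or 74.6%.

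Several named genes fell in both backgrounds. AT3G10930 had 6.63 and 6.38 in ex1/ex2/flu and 10.14 and 10.37 in ex2/flu, a difference of -3.75 ± 0.21 (limma adjusted p = 1.69e-07) that set it back to the wild-type range. DLAH had 6.58 and 6.76 in ex1/ex2/flu and 9.68 and 9.31 in ex2/flu (-2.82 ± 0.27, limma adjusted p = 7.71e-06). STZ had 10.62 and 10.48 in ex1/ex2/flu and 12.93 and 13.03 in ex2/flu, and fell by 2.43 ± 0.15 (limma adjusted p = 2.63e-07). WRKY53 and PUB24 differed by -1.93 and -0.75, and all 4 called TIR-domain genes were called again, with differences from -2.40 to -1.78. GIS was the named gene that rose in both, by 0.99 ± 0.19 here (limma adjusted p = 0.00569), with 9.30 and 9.45 in ex1/ex2/flu and 8.22 and 8.55 in ex2/flu.

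Other named genes lower in ex1/flu than in flu were not called in this comparison. Among them were the genes set out above whose means were lower in ex2/flu too. AT3G22240 differed by -0.30 ± 0.33, AT5G57655 by 0.46 ± 0.17, CHI by 0.80 ± 0.22, AT1G68620 by 0.16 ± 0.28 and AT2G20670 by -0.44 ± 0.31 between ex1/ex2/flu and ex2/flu, none of them called. UGT73B1 had 7.24 and 6.89 in ex1/ex2/flu and 7.59 and 7.96 in ex2/flu and differed by -0.71 ± 0.22 (limma adjusted p = 0.146). WRKY6 differed by -0.84 ± 0.35 and was not called.

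Whether the effect of losing EX1 differed with and without EX2 was tested as an interaction in the same model. It was called for 29 of 14435 probe sets (0.201%), 10 positive (0.0693%) and 19 negative (0.132%). A negative value means a lower difference without EX2, through a deeper fall there, a rise with EX2 intact, or both. The largest of the named genes was AT3G22240 at 5.51 ± 0.46 (limma adjusted p = 6.29e-05). It was already at 7.37 and 7.21 in ex2/flu, where the mean filter level was 6.46, so there was little room for a further fall to show. AT3G10930 had -1.68 ± 0.29 (limma adjusted p = 0.0257), AT1G05575 -1.75 ± 0.32 (0.0413) and STZ -1.16 ± 0.21 (0.0393). AT5G57655 had 1.67 ± 0.24 (0.0114) and CHI 1.93 ± 0.31 (0.0222). The count moved strongly with single arrays: it was 3 without flu array 1, 10 without ex2/flu array 1, 7 without ex1/ex2/flu array 1, 47 without ex1/flu array 2 and 91 without ex1/flu array 1. For the other named genes the difference between the backgrounds did not pass the test.

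**Figure D5:**
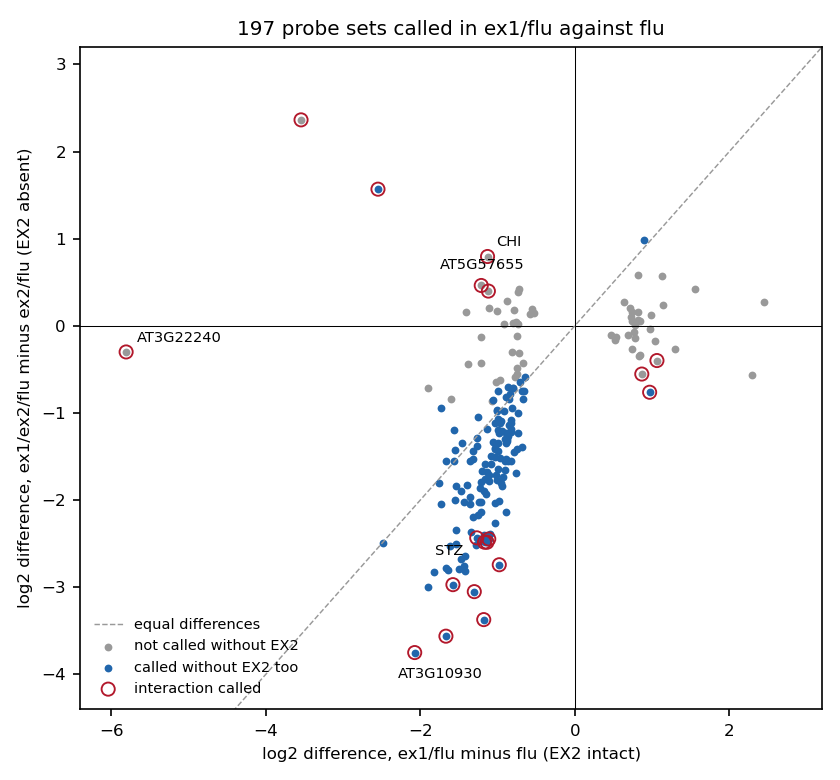
Each point is 1 of the 197 probe sets called in ex1/flu against flu. The x axis is that log2 difference (EX2 intact), the y axis the log2 difference of ex1/ex2/flu minus ex2/flu (EX2 absent); blue points are called on the y axis too, red rings mark a called interaction, and the dashed line marks equal differences. Most points on the left lie in the lower left, with 146 of 165 below 0 on the y axis, while the points on the right centre near 0.

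Set directly against each other, the single mutants differed mostly by lower levels in ex1/flu. Between ex1/flu and ex2/flu 278 probe sets were called (1.93%), 264 lower in ex1/flu (1.83%) and 14 higher (0.097%), and without ex2/flu array 2 the count was 185. AT3G10930 had 7.08 and 7.39 in ex1/flu and 10.14 and 10.37 in ex2/flu, a difference of -3.02 ± 0.21 (limma adjusted p = 3.73e-06). AT3G02840 had 8.17 and 8.06 in ex1/flu and 10.15 and 10.20 in ex2/flu, a difference of -2.06 ± 0.16 (limma adjusted p = 1.08e-05). CML37, uncalled against flu, differed by -2.11 ± 0.29 from ex2/flu (limma adjusted p = 0.000439), and XTH18 differed by -2.53 ± 0.28 (limma adjusted p = 8.32e-05).

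CRR42 and GIS were higher in ex1/flu than in ex2/flu, by 0.79 ± 0.17 (limma adjusted p = 0.0169) and 0.80 ± 0.19 (limma adjusted p = 0.0367). The 9 other named genes higher in ex1/flu than in flu were not called here, with differences from 0.02 to 0.45. AT3G22240 (0.20 ± 0.33), AT5G57655 (-0.06 ± 0.17), CHI (0.76 ± 0.22), AT1G68620 (0.20 ± 0.28) and AT2G20670 (-0.26 ± 0.31) were not called either. These comparisons share arrays with ex1/flu against flu, so their values are given side by side only.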

How the data were processed

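Total RNA was labelled with biotin through double-stranded cDNA and in vitro transcription, per the labels' protocols, and hybridised to ATH1 arrays. The deposited values are a linear intensity for each of 22810 probe sets, which the authors made with GCOS 1.2 and MAS5, per the submitters' processing notes. Their scaling target is not given in the sources used here.

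After removal of 64 control probe sets, the filter kept 14435 of 22746, requiring 2 or more arrays at or above that array's 40th percentile. Log2 was taken with no offset, and no other normalization was applied. One linear model over the 10 arrays, with a mean for each genotype, was fitted with limma 3.58.1 in R 4.3.3, and eBayes used an intensity trend. Residual degrees of freedom were 5 and the prior's were 10.0. Calls required an adjusted p (Benjamini-Hochberg, 14435 tests) under 0.05. The script was tested on simulated data. The number of arrays limits the precision, and the median kept log2 signal was 8.67. Python 3.11.15 with matplotlib 3.10.9 drew the figures.

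The platform annotation gave 1 gene to 13513 probe sets, several to 503 and none to 8730. Locus names and gene order came from RefSeq TAIR10.1. Named genes were EX1, the 24 lowest and up to 12 highest called (11 qualified) with 1 gene, separated arrays and a mean at or above the median signal in the higher genotype. Called list members were also named, or up to 2 uncalled ones where none was called. The comparisons, lists and rules were chosen with earlier results of these data known. Namesakes that share only a symbol's letters with a list were dropped after values were seen.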

Additional observations from a re-analysis of the deposited data

Results flagged for a closer look

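For 6 named genes the difference between lines without and with EX1 was not the same with and without EX2, by the interaction test of the 10-array limma model. The interaction is given here as the log2 difference of ex1/ex2/flu minus ex2/flu less that of ex1/flu minus flu. AT3G22240 had 5.51 and AT5G57655 had 1.67, and CHI had 1.93. These 3 genes were called lower in ex1/flu than in flu and were not called in ex1/ex2/flu against ex2/flu. AT3G22240 was already at 7.37 and 7.21 in ex2/flu, where the mean filter level was 6.46, so there was little room for a further fall to show. For AT3G22240 loss of EX1 and other differences in background between the ex1/flu and flu lines cannot be told apart. AT3G10930 had -1.68, AT1G05575 -1.75 and STZ -1.16, and these 3 were called lower in both comparisons. The fall in ex1/flu was used to name these genes and enters the interaction.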

How the results depend on the processing

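The EX1 difference stayed called under every alternative, from -1.71 to -1.64 with single arrays left out. The 197 calls of ex1/flu against flu became 106 without limma's intensity trend and 341 with the poly-A spike-in level as a covariate, an alternative chosen after seeing the data. With single arrays left out they ranged from 58 (without flu array 2) to 243, and the 102 calls of at least 2-fold from 54 (without flu array 2) to 154 (without ex1/flu array 2). The 278 of ex1/flu against ex2/flu ranged from 185 to 277, the 393 of ex1/ex2/flu against ex2/flu from 225 (without ex1/ex2/flu array 2) to 484, and the share of 78.2% from 62.1% to 93.3%. The 29 interaction calls became 8 without a filter and 3 without the trend, and 3 to 91 with single arrays left out. Same-numbered arrays deviated from their genotype means with a correlation of 0.088 for ex1/flu and flu. It was 0.431 for ex1/flu and ex2/flu, and -0.086 to 0.064 for the other 8 pairs of genotypes. The main model did not take the numbers as pairs, and the source of the 0.431 was not tested. The replicate block gave 214 calls for ex1/flu against flu, 193 of them among the 197, and 288 for ex1/flu against ex2/flu. No called named gene changed direction. Of uncalled ones NAC014 (-0.03, and -0.23 to 0.16 with single arrays left out) turned to 0.18 with the hybridisation spike-in covariate, 0.09 without flu array 1 and 0.16 without ex1/flu array 2, and GI (0.17, and -0.18 to 0.52 with single arrays left out) to -0.01 without flu array 2 and -0.18 without ex1/flu array 1. The cause of these changes was not tested. Signals near the filter level limit what dim probe sets can show, and 2 arrays a genotype limit all tests.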

Other observations

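Of the 29 probe sets with a called interaction of ex1 and ex2, 16 were assigned to 1 gene, and the 10 beyond those already described are named after their values were seen. THI2.1, a thionin of jasmonate-responsive defence, had 8.10 and 8.35 in ex1/flu against 7.34 and 7.60 in flu, and 7.39 and 6.55 in ex1/ex2/flu against 8.77 and 8.62 in ex2/flu. It was not called in ex1/flu against flu (0.76 ± 0.26) and fell by 1.72 ± 0.26 in ex1/ex2/flu against ex2/flu, with an interaction of -2.48 ± 0.36 (limma adjusted p = 0.0114). XTH19, a xyloglucan-modifying enzyme of the cell wall, had 8.74 and 8.56 in ex1/flu against 8.21 and 8.11 in flu, and 7.72 and 7.53 in ex1/ex2/flu against 9.36 and 9.47 in ex2/flu, with an interaction of -2.28 ± 0.24 (limma adjusted p = 0.000562). PDF1.2, a plant defensin, had an interaction of -2.05 ± 0.39 (limma adjusted p = 0.0474). For these 3 genes ex2/flu had the highest mean of the 5 genotypes.

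LHCB4.2, a minor antenna protein of photosystem II, had 12.74 and 12.87 in ex1/flu, 13.06 and 12.83 in flu and 12.94 and 12.85 in ex1/ex2/flu, against 13.99 and 13.99 in ex2/flu and 13.88 and 14.05 in wild type. Only ex2/flu and wild type were high, and the interaction was -0.95 ± 0.16 (limma adjusted p = 0.0257). AT3G02480 had 2.88 and 5.09 in ex1/flu, 7.61 and 7.45 in flu; ex1/ex2/flu had 7.01 and 5.91 and ex2/flu 3.40 and 4.79, with both arrays of ex1/flu and of ex2/flu below the filter level. No size is given for its interaction, since those values are only bounded by that level. AT2G30600, a BTB-domain protein, had an interaction of 1.52 ± 0.26, and AR781, AT5G57760, AT4G24380 and AT4G33960 had -1.35, -1.46, -1.74 and -1.59. AR781 was called lower in ex1/flu than in flu (-1.14) and in ex1/ex2/flu than in ex2/flu (-2.48). AT4G24380 differed by -0.42, not called, and by -2.16, called. AT5G57760 was called higher in ex1/flu than in flu (1.06 ± 0.19) and differed by -0.40 without EX2, not called. AT4G33960 differed by 0.67 with EX2, not called, and by -0.91 without it, called.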
